A study of Mus musculus with 16 samples.

Results

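The 7 genes described here belong to type 2 inflammation and were followed in mouse ear skin: the chemokines Ccl24, Ccl11, Ccl17, Ccl22, Ccl6 and Ccl8, and the secreted resistin-like protein Retnla. They were chosen by gene symbol, which matched 7 of the 48440 genes counted, each by a single gene entry. The study set a high-fat diet (HFD) against a normal diet (ND), each without and with PMA, in B6 mice. PMA (phorbol 12-myristate 13-acetate) inflames skin by switching on protein kinase C. There were 4 mice in each of the 4 groups. Untreated ND mice and untreated HFD mice served as controls. In the treated ND and HFD mice, PMA at 200 ng per ear was put on the ear and the skin was taken 24 hours later. The high-fat feeding lasted 8 weeks. The same protocol text is attached to every sample. The sources used here do not give the age of the mice, the make-up of either diet, or whether solvent was put on the untreated ears.

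Type 2 inflammation is the response to parasites and allergens in which interleukin 4 and interleukin 13 act through the transcription factor STAT6. Its chemokines draw eosinophils through the receptor CCR3 and T helper type 2 cells through CCR4 and, in mice, CCR8. In skin these chemokines come mainly from macrophages, dendritic cells, fibroblasts and keratinocytes, and they are best known from atopic dermatitis. Retnla, also called RELM-alpha or FIZZ1, is a marker of macrophages activated by interleukin 4.

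The 16 libraries held 7739487 to 15571389 counted reads assigned to genes, and levels are given as CPM, counts scaled to library size. CPM values were scaled by the trimmed mean of M-values (TMM). Libraries were made with SMART-Seq2, which amplifies cDNA by PCR without molecular identifiers. Counting limits therefore cover counting error only. Keratinocyte markers, which check the labelled tissue, summed to 12130 CPM or more in every library. The library identifiers begin with RHS in the 4 untreated ND mice and in untreated HFD replicate 1, and with RHP in the other 11, and the meaning of the prefix was not given. The skin is a bulk sample, so fewer cells of a type and less RNA per cell cannot be told apart.

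The genes lie on 4 chromosomes of GRCm38, in the positions of GENCODE M21, and none overlaps an exon of another gene on either strand. Ccl22 (chromosome 8, 94745590 to 94751699) and Ccl17 (chromosome 8, 94810453 to 94812036) are neighbours on the plus strand. Ccl11 (82057823 to 82062955) and Ccl8 (82115185 to 82116799), both on the plus strand, share chromosome 11 with Ccl6 (83587882 to 83593087, minus strand). Ccl24 is on chromosome 5 (135569937 to 135573049, minus strand) and Retnla on chromosome 16 (48842551 to 48844461, plus strand). RefSeq promoter windows (GRCm38.p6, 300 bases around the start site) were matched for 5 of the 7 genes. No window was found for Ccl24 and Ccl11. The 4 stretches below are the part of each window upstream of the annotated start. They are shown for Ccl17 and Retnla, whose windows hold a STAT6-type motif, and for Ccl22 and Ccl6, which rose after PMA in both diets. Each reads 5′ to 3′ on the gene's own strand, and capitals mark the matches to a STAT6-type or STAT-type motif.
Ccl17, chr8:94810203-94810452, plus strand: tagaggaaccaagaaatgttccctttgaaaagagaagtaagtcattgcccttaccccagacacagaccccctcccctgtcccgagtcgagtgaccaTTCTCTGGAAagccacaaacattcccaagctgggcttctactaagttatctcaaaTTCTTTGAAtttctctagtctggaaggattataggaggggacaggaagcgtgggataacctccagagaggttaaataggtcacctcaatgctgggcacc
Retnla, chr16:48842359-48842550, plus strand: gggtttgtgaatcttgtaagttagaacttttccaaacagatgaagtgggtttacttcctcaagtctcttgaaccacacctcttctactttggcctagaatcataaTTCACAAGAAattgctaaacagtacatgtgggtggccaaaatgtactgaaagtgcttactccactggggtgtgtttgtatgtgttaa
Ccl22, chr8:94745434-94745589, plus strand: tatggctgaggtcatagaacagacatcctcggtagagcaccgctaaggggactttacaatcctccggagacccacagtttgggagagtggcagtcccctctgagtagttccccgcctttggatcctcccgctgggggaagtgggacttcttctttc
Ccl6, chr11:83593088-83593337, minus strand: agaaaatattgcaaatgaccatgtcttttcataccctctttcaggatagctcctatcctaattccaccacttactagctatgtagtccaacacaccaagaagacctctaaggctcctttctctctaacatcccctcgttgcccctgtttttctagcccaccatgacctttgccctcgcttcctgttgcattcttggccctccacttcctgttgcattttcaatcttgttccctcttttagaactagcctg

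The palindromic STAT6-type motif, searched on both strands, was found in 2 of the 5 windows and in 6.95% of 32851 promoter windows of the same length. In Ccl17 it read TTCTCTGGAA at -154 to -145 from the RefSeq start, and in Retnla TTCACAAGAA at -145 to -136. The general STAT motif, TTCNNNGAA, was in the Ccl17 window as TTCTTTGAA at -99 to -91 and in 8.3% of all windows. Neither the AP-1 motif TGANTCA (7.81% of all windows) nor the NF-kB-type motif (5.78%) was found in any of the 5. The matches describe letters within these windows and were not tied to binding.

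PMA raised 4 of the 6 genes that could be tested in ND mice and 2 of them in HFD mice, and 3 were lower in HFD than in ND skin after PMA. Differences were tested with edgeR's quasi-likelihood test on the counts of all 16 libraries, and p-values were adjusted by the Benjamini-Hochberg method over 17604 genes, with 0.05 as the threshold. Ccl17 did not pass the filter on low counts, which the other 6 passed. In ND mice, Ccl22, Ccl6, Ccl24 and Ccl8 rose, 4 of 6 against 8.96% of all genes tested, and their treated and untreated libraries did not overlap, as was true upward of 10.6% of all genes. In HFD mice, Ccl22 and Ccl6 rose, 2 of 6 against 7.34%, again without overlap, which held upward for 10.8%. In ND mice the library prefix separates untreated (RHS) from treated (RHP) libraries, so prefix and PMA cannot be told apart there except through untreated HFD replicate 1. With the prefix as a covariate, resting on that library, the log2 rise in ND mice was 2.73 for Ccl22 (edgeR adjusted p = 0.0105) and 2.36 for Ccl6 (adjusted p = 0.000321). That of Ccl24 was 1.94 and no longer passed (adjusted p = 0.145). Without untreated HFD replicate 1, so that both HFD groups were RHP, the rise in HFD mice was 1.63 for Ccl22 (edgeR adjusted p = 0.00288). For Ccl6 it was 1.18 (edgeR adjusted p = 0.000719). That fit kept the untreated ND libraries, which are RHS. All 8 treated libraries have the RHP prefix.

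In PMA-treated skin, Ccl24, Ccl6 and Retnla were lower in HFD than in ND mice, 3 of 6 against 1.26% of all genes tested. The libraries of these 3 genes did not overlap between diets, which held in that direction for 4.71% of all genes. In untreated skin the diets differed for 0 of 6 by edgeR, where 3.93% of all genes were called, with 0 of 6 at an unadjusted p under 0.05 and 0 by DESeq2. The difference between diets in the PMA effect, the interaction, was below 0 for 6 of 6 genes and for 55.1% of all genes. It passed the threshold for 0 of 6 by edgeR and for 0.00568% of all genes. At an unadjusted p under 0.05 there were 4 of 6, against 4.63% of all genes, and DESeq2 called 2, Ccl24 and Ccl6. The comparisons share groups: the treated ND libraries enter both the PMA effect in ND mice and the diet effect after PMA. The library prefix also enters the untreated diet effect and the interaction. All 4 untreated ND libraries are RHS, and of the untreated HFD libraries only replicate 1 is. With the prefix as a covariate, resting on that library, 0 of the 6 genes were called in either comparison.

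**Figure D1:**
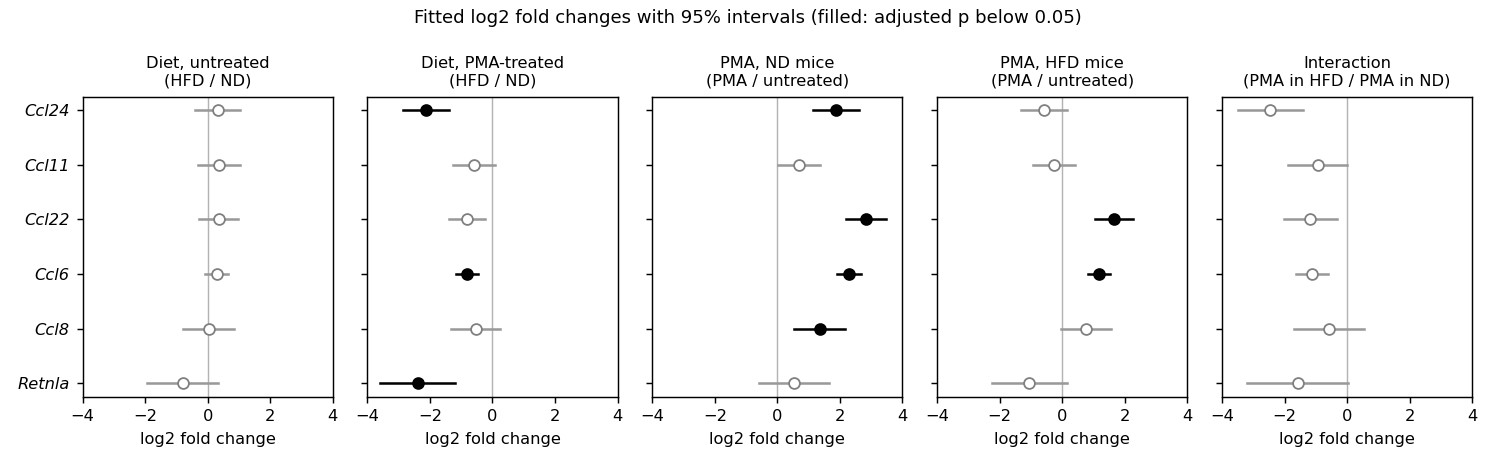
Log2 fold changes with 95% intervals for the 6 genes tested, in the 5 comparisons; filled points have an edgeR adjusted p below 0.05. All 6 points lie to the left of 0 for the diet effect after PMA and for the interaction, and only 3 of the former and none of the latter are filled.

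The median log2 fold change of the 6 genes was 1.61 for PMA in ND mice and 0.26 for PMA in HFD mice, where the medians of all genes tested were 0.00 and -0.02. For diet after PMA it was -0.82 beside -0.03 over all genes, and for diet in untreated skin 0.31 beside -0.02. The medians describe these 6 genes and were not tested.

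Ccl24, or eotaxin-2, a ligand of CCR3 that attracts eosinophils, rose with PMA in ND mice, and its level in treated HFD mice overlapped that of untreated skin. Untreated ND libraries held 2.71, 3.78, 3.93 and 2.91 CPM, and untreated HFD libraries 4.32, 3.47, 6.24 and 2.60 CPM (replicates 1 to 4). After PMA, ND libraries held 14.9, 17.3, 10.03 and 6.88 CPM. After PMA, HFD libraries held 2.31, 3.49, 2.58 and 2.75 CPM. Every treated ND library thus lay above the 12 others, the nearest being untreated HFD replicate 3. The means were 3.33 ± 0.612 and 4.16 ± 1.55 CPM in untreated ND and HFD skin and 12.3 ± 4.70 and 2.78 ± 0.507 CPM after PMA (SD, n = 4). PMA raised Ccl24 3.67-fold in ND mice (log2 1.88 ± 0.35 SE, edgeR adjusted p = 0.00106). In HFD mice its log2 change was -0.58 ± 0.35 (adjusted p = 0.341). After PMA the level was 4.40 times lower in HFD than in ND mice (log2 -2.14 ± 0.35, edgeR adjusted p = 0.00378). This call held in each of the 17 alternative analyses. The difference between the PMA effects was -2.46 on the log2 scale (95% interval -3.49 to -1.42), with an unadjusted p of 7.43e-05, an edgeR adjusted p of 0.187 and a DESeq2 adjusted p of 0.00701.

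Ccl11, or eotaxin-1, is also a CCR3 ligand and is made by fibroblasts and endothelial cells. Its level passed no test after adjustment. Untreated ND libraries held 17.7, 16.2, 15.5 and 9.07 CPM and untreated HFD libraries 16.3, 13.7, 15.7 and 29.2 CPM. After PMA the values were 33.3, 26.0, 20.9 and 14.4 CPM in ND mice and 10.3, 10.1, 22.1 and 20.3 CPM in HFD mice. All 4 groups overlapped. The log2 change with PMA was 0.69 ± 0.32 in ND mice (edgeR unadjusted p = 0.0431, adjusted p = 0.179, 95% interval 0.02 to 1.36). In HFD mice it was -0.25 ± 0.32 (edgeR adjusted p = 0.708). After PMA the diets differed by -0.59 ± 0.32 (edgeR adjusted p = 0.391, 95% interval -1.26 to 0.07). The treated ND library with the lowest Ccl11, replicate 4, was also the lowest of its group for Ccl24, Ccl17, Ccl6 and Ccl8.

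**Figure D2:**
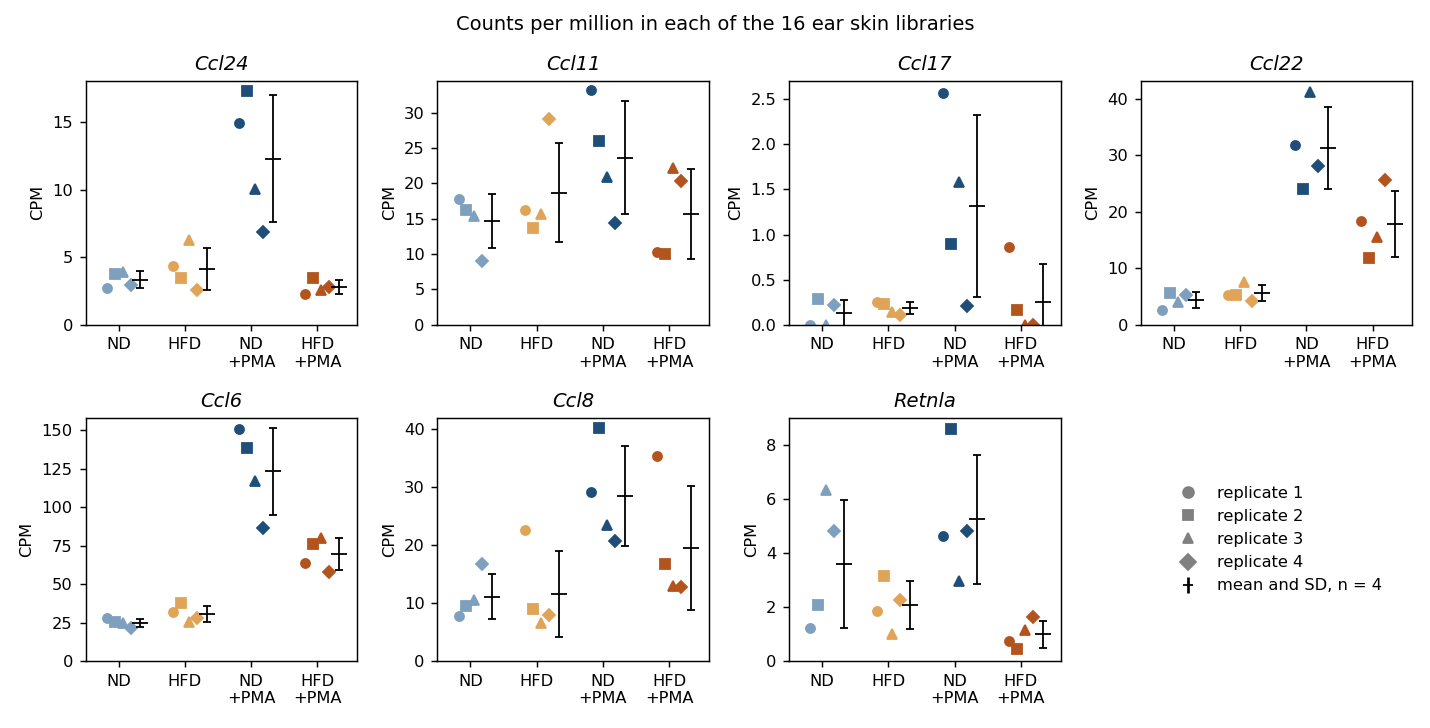
CPM of each gene in each library, by group (x axis: diet without and with PMA); symbols give the replicate number, and black bars the mean and SD of 4 libraries, drawn from 0 upward. The 4 treated ND libraries of Ccl24 sit between 6.88 and 17.3 CPM, and the 4 treated HFD libraries between 2.31 and 3.49 CPM.

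Eosinophil markers gave low values throughout. The 8 markers, which include the receptor Ccr3, summed to 1.46 to 5.47 CPM in untreated ND skin and 1.85 to 5.10 CPM in untreated HFD skin. After PMA they summed to 5.34 to 14.2 CPM in ND mice and 3.41 to 15.01 CPM in HFD mice, so the treated groups overlapped. The eosinophil peroxidase gene Epx had 0 counts in both untreated groups, and Ear6 had 0 in untreated and treated ND skin, as had Ear1 in treated ND skin. Of the 3 markers that could be tested, 0 were called by edgeR in any comparison. With PMA in HFD mice 2 of them, Siglecf and Ccr3, had an unadjusted p under 0.05 and DESeq2 called 1, Siglecf; with PMA in ND mice 1, Ccr3, had an unadjusted p under 0.05 and DESeq2 called 0. Ccr3 itself ranged from 2.87 to 6.79 CPM in treated ND skin and from 0 to 11.3 CPM in treated HFD skin. Its log2 change with PMA was 2.56 ± 1.22 in ND mice (edgeR adjusted p = 0.191) and 3.74 ± 1.33 in HFD mice (adjusted p = 0.0748). The part of eosinophil numbers in the Ccl24 values was not tested.

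Ccl22 and Ccl17 are the ligands of CCR4, made by dendritic cells and macrophages, and recruit T helper type 2 and regulatory T cells. Ccl22 rose with PMA in both diets. Untreated libraries held 2.59, 5.57, 4.03 and 5.27 CPM in ND mice and 5.30, 5.32, 7.62 and 4.12 CPM in HFD mice. Treated libraries held 31.8, 24.1, 41.3 and 28.1 CPM in ND mice and 18.4, 11.8, 15.6 and 25.7 CPM in HFD mice. All 8 treated libraries lay above all 8 untreated ones, and the treated diets overlapped through HFD replicate 4. The rise was 7.13-fold in ND mice (log2 2.83 ± 0.30, edgeR adjusted p = 3.14e-06) and 3.16-fold in HFD mice (log2 1.66 ± 0.29, adjusted p = 0.000727). After PMA the diets differed by -0.82 ± 0.28 on the log2 scale, short of the threshold (edgeR adjusted p = 0.132). The interaction was -1.17 ± 0.40 (unadjusted p = 0.00872, edgeR adjusted p = 0.847).

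Ccl17 was near the limit of detection. Its counts in replicates 1 to 4 were 0, 3, 0 and 2 in untreated ND skin and 2, 3, 2 and 1 in untreated HFD skin. After PMA they were 31, 14, 22 and 2 in ND mice and 9, 2, 0 and 0 in HFD mice. A count of 0 allows up to 3 counts, or 0.376 CPM in the shallowest of the treated HFD libraries. In CPM the treated ND libraries held 2.57, 0.899, 1.59 and 0.205, and the treated HFD libraries 0.865, 0.159, 0 and 0. A two-sided exact permutation test of the CPM values (4 against 4, smallest possible p = 0.0286) gave p = 0.0857 for PMA in ND mice and p = 0.0571 for diet after PMA, each 0.171 after adjustment over the 4 comparisons. For PMA in HFD mice the exact test gave p = 0.943, and for diet in untreated skin p = 0.543. Replicate 4 of the treated ND group, with 2 counts, lay within the untreated range.

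The markers of Langerhans and dendritic cells, known sources of Ccl17 and Ccl22, summed to 633 to 829 CPM in untreated ND skin and 643 to 737 CPM in untreated HFD skin. After PMA they summed to 756 to 1196 CPM in ND mice and 702 to 988 CPM in HFD mice. Of the 11 markers, 4 rose with PMA in ND mice, 2 rose in HFD mice, and 1, Cd209a, was lower in HFD mice after PMA (edgeR). The shares over all genes tested were 8.96%, 7.34% and 1.26%. The part of Langerhans and dendritic cells in the Ccl22 values was not tested. The receptor Ccr4 stood at 14.5 ± 4.22 and 17.5 ± 8.01 CPM in untreated ND and HFD skin. After PMA it stood at 25.0 ± 8.87 and 24.4 ± 6.63 CPM (SD, n = 4), with no call by edgeR or DESeq2 in any comparison. For PMA in ND mice the edgeR unadjusted p of Ccr4 was under 0.05.

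Ccl6 is a chemokine of rodents made by macrophages and other myeloid cells, and it acts on CCR1. It rose with PMA in both diets and was lower in HFD mice after PMA. Untreated libraries held 28.1, 25.8, 25.0 and 21.9 CPM in ND mice and 31.9, 37.9, 25.7 and 28.1 CPM in HFD mice. After PMA, the values were 151, 138, 117 and 86.2 CPM in ND mice and 63.9, 76.0, 80.0 and 57.8 CPM in HFD mice. The libraries formed 3 separate levels: all untreated ones, then the treated HFD ones, then the treated ND ones, whose lowest was replicate 4. PMA raised Ccl6 4.90-fold in ND mice (log2 2.29 ± 0.18, edgeR adjusted p = 7.2e-08) and 2.25-fold in HFD mice (log2 1.17 ± 0.17, adjusted p = 0.000179). After PMA it was 1.77 times lower in HFD mice (log2 -0.83 ± 0.17, edgeR adjusted p = 0.0137). That call was lost without treated HFD replicate 1 (adjusted p = 0.0571) or replicate 4 (adjusted p = 0.0512), and when the 8 treated libraries were fitted alone (adjusted p = 0.0597). The interaction was -1.12 ± 0.24 (unadjusted p = 0.000169, edgeR adjusted p = 0.278, DESeq2 adjusted p = 0.0264).

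Ccl8, in mice a ligand of CCR8 linked to skin allergy, rose with PMA in ND mice. Untreated libraries held 7.76, 9.54, 10.6 and 16.7 CPM in ND mice and 22.6, 9.10, 6.53 and 8.02 CPM in HFD mice. After PMA they held 29.2, 40.1, 23.4 and 20.7 CPM in ND mice and 35.4, 16.8, 13.1 and 12.8 CPM in HFD mice. The ND groups did not overlap, and in both HFD groups replicate 1 was far above the other 3. The rise in ND mice was 2.55-fold (log2 1.35 ± 0.39, edgeR adjusted p = 0.0243). It was lost without untreated ND replicate 1, 2 or 3 (adjusted p = 0.0766, 0.0775 and 0.0703) or treated ND replicate 2 (adjusted p = 0.0871). In HFD mice the log2 change was 0.77 ± 0.39 (edgeR adjusted p = 0.232). Without untreated HFD replicate 1, which has the other library prefix, it was 1.30 (adjusted p = 0.026). With the prefix as a covariate the change in ND mice was 2.87 on the log2 scale. That value rests on untreated HFD replicate 1, the library far above the others of its group.

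Macrophage markers, a list of 12 genes, summed to 660 to 856 CPM in untreated ND skin and 483 to 667 CPM in untreated HFD skin. After PMA they summed to 816 to 1148 CPM in ND mice and 485 to 846 CPM in HFD mice, where the ranges overlapped narrowly. Of the 12, 2 were lower in HFD mice after PMA, Cd163 and Csf1r, and in untreated skin 1 was lower, Csf1r (edgeR). Over all genes tested, 1.26% were lower in HFD mice after PMA, and 3.93% were called in either direction in untreated skin. Monocyte markers summed to 583 to 917 CPM in treated ND and 363 to 564 CPM in treated HFD mice, a gap carried by Fn1, which is also a matrix gene (539 ± 132 and 283 ± 82.0 CPM, SD, n = 4) and was the 1 of 6 called by edgeR. The other 5 overlapped between the treated diets. Untreated skin showed a gap in the same direction, at 462 to 604 CPM in ND and 320 to 374 CPM in HFD mice.

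Fibroblast markers summed lower in HFD mice both untreated (7618 to 9281 CPM in ND and 4907 to 5683 CPM in HFD mice) and after PMA (5205 to 6807 CPM and 3255 to 4965 CPM). By edgeR 3 of the 8 were lower untreated, Col1a1, Col1a2 and Lum, and 2 after PMA, Col1a1 and Col1a2. Of the 17604 genes tested, 186 were lower in HFD mice untreated and 221 after PMA. Keratinocyte markers summed higher in HFD mice both untreated (12130 to 16290 CPM in ND and 18990 to 23230 CPM in HFD mice) and after PMA (19560 to 22950 CPM and 25150 to 28300 CPM). By edgeR 4 of these 6 were higher untreated, Krt5, Krt14, Krt1 and Krt10, and 1 after PMA, Krt1. Over all genes tested, 505 were higher untreated and 166 after PMA. None of Ccl24, Ccl11, Ccl22, Ccl6, Ccl8 and Retnla was called between diets in untreated skin. With 4 libraries per group this does not show that their levels were equal. T cell and ILC markers summed to 869 to 939 CPM in treated ND and 674 to 732 CPM in treated HFD mice, most of it Gata3, which keratinocytes also express. Neutrophil markers summed to 85.3 to 257 CPM in treated ND and 291 to 1213 CPM in treated HFD mice, which S100a8 and S100a9 carried. Of 6 neutrophil markers tested, 0 were called by edgeR for diet after PMA. Those 2 had an unadjusted p under 0.05 and were called by DESeq2, while Csf3r, Cxcr2, Mmp8 and Retnlg overlapped between the diets. Endothelial markers summed to 123 to 174 CPM in ND and 66.0 to 109 CPM in HFD mice untreated, and overlapped after PMA. Hair shaft and inner root sheath markers summed to 9.12 to 51.8 CPM in ND and 64.0 to 2276 CPM in HFD mice untreated. After PMA these hair sums were 6.79 to 125 CPM and 55.3 to 2916 CPM. No endothelial or hair marker was called between diets by edgeR. The part of these cell types in the lower Ccl24, Ccl6 and Retnla of HFD skin was not tested.

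Retnla did not rise with PMA by the test and was lower in HFD than in ND skin after PMA. Untreated libraries held 1.23, 2.08, 6.33 and 4.82 CPM in ND mice and 1.85, 3.16, 1.02 and 2.28 CPM in HFD mice. After PMA the values were 4.64, 8.61, 2.96 and 4.82 CPM in ND mice and 0.769, 0.476, 1.17 and 1.63 CPM in HFD mice. The treated diets did not overlap, while the untreated ND libraries overlapped both. After PMA the level was 5.23 times lower in HFD mice (log2 -2.39 ± 0.58, edgeR adjusted p = 0.032). The call was lost without treated ND replicate 1, 2 or 4 and without treated HFD replicate 1, 2 or 3, with adjusted p up to 0.116, and when the 8 treated libraries were fitted alone (adjusted p = 0.0595). The log2 change with PMA was 0.54 ± 0.53 in ND mice (edgeR adjusted p = 0.594) and -1.05 ± 0.57 in HFD mice (adjusted p = 0.277). In untreated skin the diets differed by -0.80 ± 0.55 (edgeR adjusted p = 0.507).

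Of the other 3 resistin family genes, Retn and Retnlg could be tested. Retn, the adipocyte hormone resistin, fell with PMA in ND mice from 9.40 ± 1.13 to 3.53 ± 1.14 CPM (SD, n = 4, log2 -1.42, edgeR adjusted p = 0.0142). In HFD mice its log2 change was -1.08 ± 0.38 (edgeR adjusted p = 0.0696), beside -1.05 for Retnla. Retnlg, a neutrophil gene, rose in HFD mice, from 0 counts in every untreated library to 54 counts over the 4 treated ones, of which 1 held 0 (edgeR adjusted p = 0.0128). In ND mice it went from 4 to 83 counts over 4 libraries, with all treated libraries above all untreated ones, and just missed the threshold (log2 3.82 ± 1.25, edgeR adjusted p = 0.0524). DESeq2 called it in both diets. Adipocyte markers summed to 302 to 435 CPM in untreated and 131 to 284 CPM in treated ND skin, and their part in the Retn values was not tested.

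Compared per kilobase of gene length, Ccl8 had the highest mean of the 7 genes in both untreated groups. In untreated HFD mice its mean was 22.6 CPM per kilobase, beside 17.3 for Ccl11 and 17.2 for Ccl6. That first place rests on replicate 1, at 44.2, where the others held 12.8 to 17.8. In untreated ND mice Ccl8 stood at 21.8 CPM per kilobase. There Ccl6 (14.0), Ccl11 (13.5), Retnla (6.05), Ccl24 (2.57) and Ccl22 (1.88) followed, and Ccl17 was last at 0.247. Among neighbours in this order only Ccl22 and Ccl17 had ranges that did not overlap. After PMA in ND mice Ccl6 led at 68.6 CPM per kilobase, with Ccl8 at 55.6, and both lay above Ccl11 at 21.8. In treated HFD mice Ccl6 and Ccl8 stood at 38.7 and 38.2 CPM per kilobase, Ccl11 and Ccl22 at 14.5 and 7.68, and Ccl24, Retnla and Ccl17 below them at 2.15, 1.69 and 0.499.

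**Figure D3:**
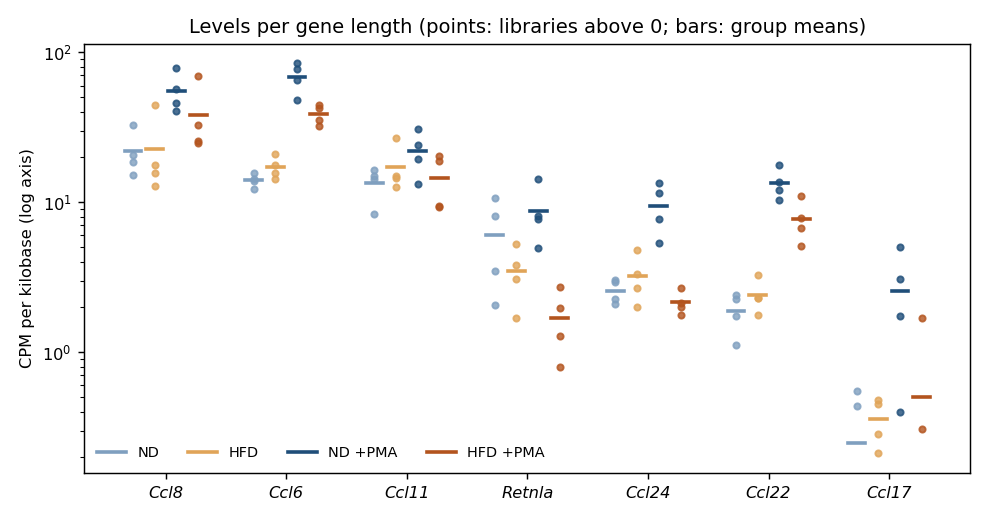
CPM per kilobase of gene length (log axis) for the 7 genes, ordered by their mean in untreated ND skin; points are libraries above 0 and bars are means of 4 libraries. Ccl6 and Ccl8 are the highest genes in both treated groups, at 68.6 and 55.6 in ND mice and 38.7 and 38.2 in HFD mice.

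Of 7 genes listed as receptors of these chemokines, 6 could be tested. Ccr2 is on the list, though no ligand of it among the 6 chemokines is named here. By edgeR 2 rose with PMA in each diet and 0 differed between diets. Over all genes tested, 8.96% rose with PMA in ND mice and 7.34% in HFD mice. Between diets after PMA 1 of the 6 listed receptors, Ccr2, had an unadjusted p under 0.05, and DESeq2 called 0. Ccr1, which binds Ccl6, rose from 3.71 ± 1.39 to 26.7 ± 8.58 CPM in ND mice (log2 2.85, edgeR adjusted p = 0.000135) and from 2.97 ± 1.07 to 32.2 ± 19.3 CPM in HFD mice (SD, n = 4). Ccr2, the monocyte receptor, rose from 18.3 ± 2.02 to 121 ± 34.0 CPM in ND mice (log2 2.73, edgeR adjusted p = 2.75e-07) and from 14.3 ± 1.39 to 86.5 ± 31.0 CPM in HFD mice. Ccr8 was at or below 1.15 CPM in every library and was not tested. The scavenging receptors Ackr1 and Ackr2, which bind chemokines without signalling for migration, were not called by edgeR. Ackr2 stood at 21.5 ± 6.38 CPM in untreated and 12.7 ± 2.298 CPM in treated ND mice (log2 -0.75, unadjusted p = 0.00802, edgeR adjusted p = 0.0586), and DESeq2 called it lower there.

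Of 15 other CC chemokines, 10 could be tested. With PMA in ND mice 4 rose and 1 fell: Ccl7 (log2 2.77), Ccl9 (2.73) and Ccl2 (2.35), which attract monocytes and other myeloid cells, and Ccl20 (1.87) rose, while the lymph node homing chemokine Ccl21a fell (-0.98). In HFD mice 4 rose, Ccl3, Ccl4, Ccl7 and Ccl9, and Ccl21a fell. Over all genes tested, 8.96% rose with PMA in ND mice and 7.34% in HFD mice. Of the 17604 genes tested, 702 fell with PMA in ND mice and 809 in HFD mice. After PMA 1 of the 10 differed between diets, Ccl3, and it was higher in HFD mice, as were 166 of the 17604. The mean of Ccl3 was 0.795 ± 0.680 CPM in the ND group and 12.7 ± 7.99 CPM in the HFD group (log2 3.95, edgeR adjusted p = 0.0148). In untreated skin Ccl20 alone differed, with means of 1.46 ± 0.455 CPM in the ND group and 9.19 ± 2.13 CPM in the HFD group (edgeR adjusted p = 0.00217). There 3.93% of all genes tested were called in either direction. The median log2 fold change of the 10 for diet after PMA was -0.39, beside -0.82 for the 6 genes described above. The difference between the lists was not tested.

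**Figure D4:**
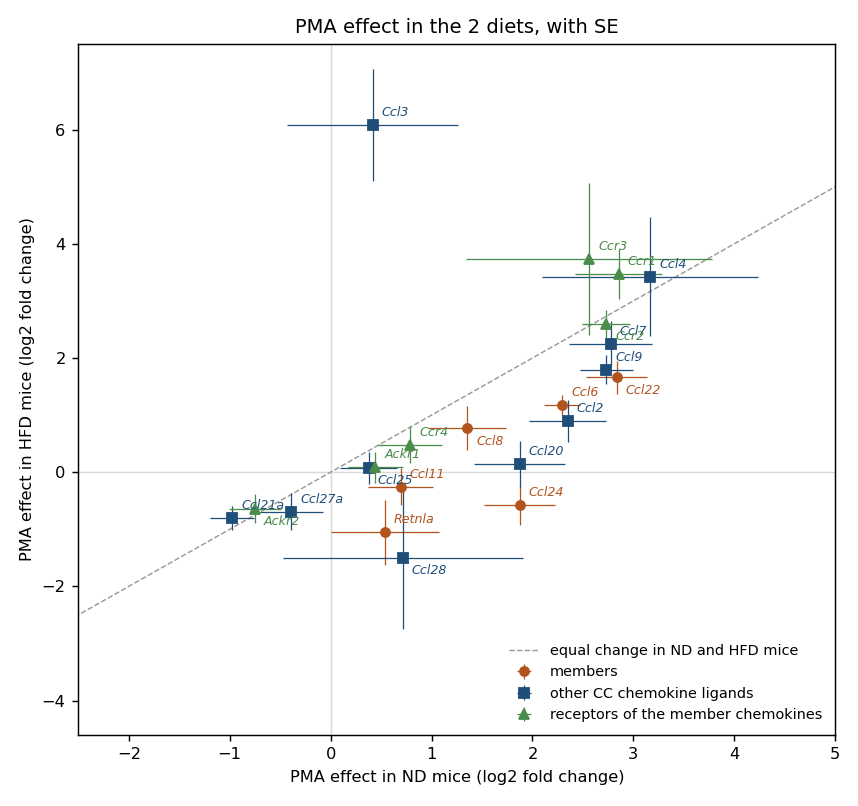
Log2 fold change with PMA in ND mice (x axis) and in HFD mice (y axis), with SE, for the 6 genes tested, other CC chemokines and receptors; the dashed line marks equal change. All 6 genes lie below the line, with Ccl24 at 1.88 in ND and -0.58 in HFD mice, and Ccl3 lies far above it.

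The cytokines that induce these genes were mostly too low to test. Of 9 type 2 cytokines and epithelial inducers 3 passed the filter, and the group means of Il4, Il5 and Il13 were at or below 0.888 CPM. Tslp, an epithelial cytokine that acts on dendritic cells, rose with PMA in ND mice from 4.41 ± 1.75 to 28.5 ± 5.38 CPM (SD, n = 4, log2 2.70, edgeR adjusted p = 6.97e-05). After PMA it was lower in HFD mice, at 10.5 ± 4.63 CPM (log2 -1.45, edgeR adjusted p = 0.0365). The treated libraries did not overlap, with 21.5 to 32.8 CPM in the ND group and 5.55 to 15.9 CPM in the HFD group. Il33, an alarmin released by damaged epithelium, rose in HFD mice from 99.1 ± 16.6 to 222 ± 96.4 CPM (log2 1.17, edgeR adjusted p = 0.00165). In treated ND mice Il33 stood at 171 ± 28.3 CPM, and it was not called between diets after PMA. Of the 3 genes tested, 1 was lower in HFD mice after PMA, Tslp, against 1.26% of all genes. The median log2 fold change of the 3 in that comparison was 0.38. With PMA 1 of the 3 rose in each diet, against 8.96% of all genes in ND and 7.34% in HFD mice.

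Of 14 type 2 cytokine receptor and signalling genes tested, 3 rose with PMA in ND mice and 4 in HFD mice. Over all genes tested, 8.96% rose with PMA in ND mice, 7.34% rose in HFD mice and 1.26% were lower in HFD mice after PMA. Il4ra, the chain shared by the receptors of interleukin 4 and interleukin 13, rose in both diets (log2 1.61 and 1.37), as did the decoy receptor Il13ra2 (1.49 and 1.53). After PMA 1 of the 14 was lower in HFD mice, Gata3 (log2 -0.38, edgeR adjusted p = 0.0259), a factor of T helper type 2 cells that keratinocytes also express. Of 12 genes of alternatively activated macrophages tested, 4 rose with PMA in ND mice and 2 in HFD mice. The chitinase-like Chil3 rose in both (log2 4.69 and 5.72), and so did the mannose receptor Mrc1 (1.17 and 0.96). After PMA 2 of the 12 were lower in HFD mice, the scavenger receptor Cd163 (log2 -1.04, edgeR adjusted p = 0.00928) and the lectin Cd209a (-1.06, adjusted p = 0.0268).

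Across the 16 libraries the genes most like each other in log2 CPM were Ccl22 and Ccl6 (Pearson r = 0.899), and the least alike were Ccl11 and Ccl8 (r = 0.0408). These values describe 16 libraries in 4 groups that share treatment and depth. Among 11625 genes with a mean of at least 5 CPM, Ccl6 was closest to Ms4a4a (r = 0.979) and Ccl9 (r = 0.961). Ccl22 was closest to Ccl9 (r = 0.934) and Ccl8 to Slc39a1 (r = 0.953). The genes closest to Ccl24 were Pla2g15 (r = 0.840), Nfs1 (r = 0.836) and Oaf (r = 0.813), and Pla2g15 was also near Ccl17 (r = 0.861). Retnla was closest to Fcgbp (r = 0.854) and Ccl11 to H2-DMa (r = 0.808).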

How the data were processed

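RNA of ear skin from 16 mice was made into SMART-Seq2 libraries, per the labels' protocols. The deposited values are read counts per gene, not normalized. The submitters' processing notes name STAR 2.3, featureCounts 1.5, GRCm38 and mm10. For strand, annotation and multiply mapped reads, the setting is not given in the sources. ERCC spike-ins were added, per the labels' protocols, and the table holds 0 such entries.

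Counts were tested with edgeR 4.0.16 (R 4.3.3, TMM, filterByExpr with a minimum count of 10, robust quasi-likelihood fit of 4 group means). Of 48440 genes, 17604 were tested. CPM used TMM-scaled totals, and correlations used log2 CPM with a prior count of 2. Ccl17 was tested by exact permutation. Fold changes carry SE and 95% intervals. Groups came from sample titles. The series' design counts mice, so each library was taken as 1 mouse. The 7 genes, the gene lists and the naming rule (all 7, receptors, the most changed called genes of each list with a mean of at least 1 CPM, and the closest 3 genes by correlation) were chosen with earlier results of these data known. The edgeR steps were tested on simulated data. Alternatives were DESeq2 1.42.0, other scalings and filters, a replicate block, the library prefix as covariate, each comparison's 8 libraries alone, and leaving out each library.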

Additional observations from a re-analysis of the deposited data

Results flagged for a closer look

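The 7 genes and the listed receptors, in each group, gave 56 sets of 4 libraries. Of these sets, 4 had a library far from the other 3, and chance alone gives about 1 in 20. All 4 were in untreated HFD skin. Replicate 4 held 29.2 CPM of Ccl11, where the others held 13.7 to 16.3 CPM. Replicate 1 held 22.6 CPM of Ccl8, where the others held 6.53 to 9.10 CPM. For the receptors, replicate 2 held 16.4 CPM of Ccr2, where the others held 13.4 to 13.8 CPM, and replicate 4 held 1.08 CPM of Ccr3, where the others held 0 to 0.0725 CPM.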

How the results depend on the processing

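Of 547 repeats of the 6 tested genes' comparisons under the alternatives, 522 kept direction and side of the threshold. The diet effect on Ccl24 after PMA was called in all 17 (log2 -2.33 to -1.88). Calls of the 6 genes after PMA by diet fell from 3 to 1 with 8 libraries fitted alone and ranged from 1 to 3 without a library, 1 being without treated HFD replicate 1. They ranged from 3 to 4 for PMA in ND mice and from 2 to 3 for PMA in HFD mice. The interaction had 2 calls with DESeq2. Signs reversed for Ccl8 in untreated skin, where no value was called: 0.04 became -0.15 with a replicate block, -0.10 without untreated ND replicate 1, -0.01 without replicate 2 and -0.488 without untreated HFD replicate 1, the range without a library being -0.488 to 0.299. It was 1.02 with the library prefix as covariate, a value that rests on untreated HFD replicate 1. For PMA in HFD mice, Ccl11 became 0.026 without untreated HFD replicate 4 (range without a library -0.475 to 0.026). With the library prefix as covariate, the call of Ccl24 for PMA in ND mice was lost (log2 1.94, edgeR adjusted p = 0.145) and Ccl8 was called for PMA in HFD mice (1.31, adjusted p = 0.0254).

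Deviations of same-numbered libraries from their group means correlated at -0.067 to 0.202. For PMA in HFD mice 2 of 4 such pairs were over 0.1, and for each other comparison 0 of 4. Whether same-numbered libraries share more than a number is therefore not settled. With the replicate block the call of Retnla in treated skin had an edgeR adjusted p of 0.0503. Under the strict filter Retnla was not tested.

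Over all genes, calls for diet in untreated skin (691) were 1211 with DESeq2, 179 with the prefix covariate and 336 to 636 without a library. For diet after PMA (387) they were 887 with DESeq2, 175 with 8 libraries alone and 116 to 307 without a library. For PMA in ND mice (2279) they were 453 with the prefix covariate and 1763 to 2158 without a library, and for PMA in HFD mice (2101) 1205 to 2139 without a library. The interaction (1) had 24 with DESeq2, 2 with no filter, the strict filter, the replicate block or the prefix covariate, and 1 to 4 without a library. Of the calls for PMA in ND mice, 69.2% were higher, against 58.5% with upper-quartile scaling and 58.1% with DESeq2. Counts within the gene lists stayed within 1.5 times in 500 of 552 repeats. The causes were not tested.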
